A study of Homo sapiens with 12 samples.

Results

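The mitochondrial genome encodes 7 subunits of respiratory complex I, namely MT-ND1, MT-ND2, MT-ND3, MT-ND4L, MT-ND4, MT-ND5 and MT-ND6. Their mRNAs were followed here in KP4 cells treated with metformin, with FK866 or with both drugs. The 7 genes were taken by name from a table of 36601 genes, as every complex I gene of the mitochondrial genome, and all 7 passed the filter on low values.

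KP4 is a human pancreatic ductal carcinoma cell line, labelled as wild type. In each group the cells received a 24 h treatment in dishes: vehicle (DMSO), 10 mM metformin (Met), 5 nM FK866 (FK), or 10 mM metformin together with 5 nM FK866 (Met+FK). Metformin is an antidiabetic drug that inhibits complex I, and FK866 inhibits NAMPT, the rate-limiting enzyme of the NAD salvage pathway. Ribosomal RNA was removed from total RNA, and both ends of the fragments were sequenced in 3 libraries for each treatment. Nothing in the labels says whether the 3 libraries of a treatment came from separate cultures. The p-values therefore judge differences against the spread between libraries, which may be technical.

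Complex I oxidizes NADH, passes the electrons to ubiquinone and pumps protons across the inner mitochondrial membrane. Its membrane arm contains the mitochondrially encoded subunits: MT-ND1 lies next to the quinone site, MT-ND2, MT-ND4 and MT-ND5 resemble ion antiporters, and MT-ND3, MT-ND4L and MT-ND6 are small subunits packed between them. Mitochondrial DNA is read on both strands into long precursor RNAs, from which the mRNAs are released mostly by cutting out the tRNAs between them. Of the complex I genes, only MT-ND6 is read from the light strand, and its mRNA is the sole mRNA of that precursor.

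The base composition of the mRNAs follows from the strand. MT-ND6 (ENSG00000198695, chrM:14149-14673 of hg38, minus strand, 525 bases) has 35.6% G and 7.05% C on its sense strand. The other 6 members lie on the plus strand and hold between 9.50% and 12.1% G and between 29.5% and 36.0% C. The first 60 bases of MT-ND6 (chrM:14614-14673, minus strand) and of MT-ND1 (chrM:3307-3366, plus strand) are shown to compare the 2 kinds of mRNA, with the first codon in capitals.
MT-ND6: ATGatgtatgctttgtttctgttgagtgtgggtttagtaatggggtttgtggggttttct
MT-ND1: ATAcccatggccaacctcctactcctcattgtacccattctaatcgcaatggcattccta
MT-ND6 opens with a run rich in G and T, and MT-ND1 with a run rich in C and poor in G.

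MT-ND6 also has no spacer to its neighbour. MT-ND5 (ENSG00000198786, chrM:12337-14148) and MT-ND6 meet end to end on opposite strands with 0 bases between them. The junction (chrM:14119-14178, plus strand, with the bases of MT-ND6 in capitals) is shown because a read pair across it touches both genes.
MT-ND5 to MT-ND6: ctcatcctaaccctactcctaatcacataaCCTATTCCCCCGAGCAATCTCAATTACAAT
The strand setting of the counting is not stated, and without strand, reads of MT-ND6 and reads of antisense RNA from the heavy-strand precursor cannot be told apart. All MT-ND6 values below carry this limit.

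MT-ND4L (ENSG00000212907, chrM:10470-10766) and MT-ND4 (ENSG00000198886, chrM:10760-12137) are carried on a single mRNA and share 7 bases. The overlap (chrM:10730-10796, plus strand, shared bases in capitals) is shown because it joins them.
MT-ND4L to MT-ND4: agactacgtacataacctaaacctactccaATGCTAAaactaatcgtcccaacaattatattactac
MT-ND3 (ENSG00000198840, chrM:10059-10404) lies upstream of this pair and is separated from it by the 65 bases of the tRNA gene MT-TR, which stand in capitals in the next sequence (chrM:10375-10499, plus strand).
MT-ND3 to MT-ND4L: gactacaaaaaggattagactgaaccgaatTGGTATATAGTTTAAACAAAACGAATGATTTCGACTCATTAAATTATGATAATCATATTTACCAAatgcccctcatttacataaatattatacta
MT-ND1 (ENSG00000198888, chrM:3307-4262) and MT-ND2 (ENSG00000198763, chrM:4470-5511) lie further upstream. The 7 genes have no introns, and these sequences and positions are those of the hg38 mitochondrial genome, of 16569 bases. Mitochondrial tRNA and rRNA genes are not analysed here. How read pairs that span 2 genes, or that also match nuclear copies of mitochondrial DNA, were counted is not stated in the sources used here, so the counts of neighbouring members are uncertain to that extent.

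Each library held between 30667735 and 41052203 counted read pairs. The complex I members took from 1.29% to 1.94% of them and the 13 mitochondrial mRNAs together from 3.22% to 4.51%. The mitochondrial share overlapped between treatments, with 3.27% to 4.11% in DMSO, 3.22% to 4.14% in Met, 3.59% to 4.51% in FK and 3.57% to 3.76% in Met+FK. A dependence on GC content varied among the libraries, with slopes of 0.043 to 0.20 (log2 per 10 percentage points of GC) in DMSO. The slopes were −0.14 to 0.080 in Met, −0.25 to 0.0027 in FK and −0.048 to 0.063 in Met+FK. Values with this trend removed are given where they change the call of a member or, against DMSO, the count of a list.

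The labelled cell type was checked against its markers. Of the ductal markers, KRT18 (18307 ± 394 normalized counts in DMSO; SD, n = 3), SOX9 (3781 ± 340) and KRT8 (3156 ± 96.3) were abundant. KRT7 (281 ± 34.1), MUC1 (104 ± 6.97), KRT19 (56.5 ± 16.3), CDH1 (28.5 ± 5.53) and EPCAM (7.69 ± 2.26) were low, and CFTR had no read pair in any library. The mesenchymal marker VIM reached 115708 ± 5434 normalized counts in DMSO, and the leukocyte marker PTPRC 244 ± 54.3. The islet gene INS was at 0 in every library and the acinar gene PRSS1 at or below 1.65. Markers also moved with metformin. Of 7 ductal markers tested, 3 were lower (log2 fold changes of −1.26 for KRT19, −0.82 for KRT18 and −0.29 for KRT8) and 2 higher (1.07 for CDH1 and 0.24 for SOX9). The 3 markers of other cells that could be tested were all lower (COL1A1 −1.15, PTPRC −0.58 and VIM −0.26). The ductal markers summed to between 25327 and 26266 normalized counts in DMSO, 16512 and 19694 in Met, 19378 and 22878 in FK, and 16238 and 19672 in Met+FK. The summed markers of other cells ranged from 112196 to 122291 in DMSO, 93902 to 98987 in Met, 98093 to 109305 in FK, and 95917 to 103922 in Met+FK. KRT18 was the largest part of the ductal sum and VIM nearly all of the other. The sums thus mainly follow these single genes and do not measure a mix of cell types. The part of the marker shifts in the results on the members was not tested. In these bulk libraries, fewer cells and less RNA per cell cannot be told apart.

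The members differed widely in counts per length of gene within vehicle-treated cells. MT-ND4L and MT-ND4, carried on a single mRNA, also differed in this measure (43596 and 168439 normalized counts per kb in DMSO). The order below is therefore one of counts per kb and not of mRNA copies. Per kilobase of gene, MT-ND4 was the highest in DMSO (168439 ± 25934 normalized counts per kb; SD, n = 3). MT-ND1 followed (112596 ± 17278) and then MT-ND2 (80678 ± 10561). The highest 3 kept this order in every DMSO library, and the ranges of MT-ND4, MT-ND1 and MT-ND2 did not overlap. MT-ND3 (67770 ± 4997) overlapped with MT-ND2 above it and with MT-ND5 (56987 ± 10326) below it, and MT-ND5 overlapped with MT-ND4L (43596 ± 8087). MT-ND6 came last, at 12361 ± 3173 normalized counts per kb, below every other member in every library and last also among the 13 mitochondrial mRNAs. The order changed with treatment. MT-ND3, the fourth of 7 in DMSO, was the fifth in FK (51111 ± 4690) and the sixth in Met (28959 ± 2817) and in Met+FK (26126 ± 2893). In those last 2 groups all libraries had MT-ND3 below MT-ND4L, whereas in all DMSO and FK libraries MT-ND3 was the higher of this pair.

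**Figure D1:**
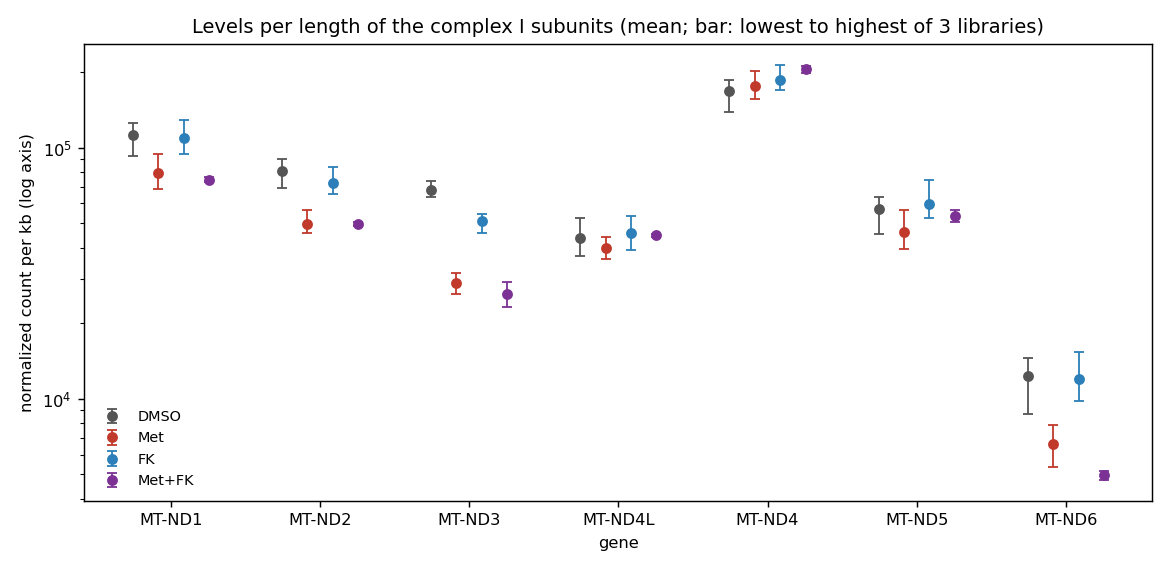
Mean normalized counts per kilobase of the 7 complex I genes on a log axis, in 4 treatments, with bars from the lowest to the highest of 3 libraries. MT-ND4 is the highest and MT-ND6 the lowest in each treatment, and MT-ND3 falls from the fourth to the sixth place with metformin.

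The first comparison asked what metformin alone did to these mRNAs. Metformin lowered 4 of the 7 members against DMSO (limma-trend, adjusted p under 0.05), and 3 of them by over 1.5-fold. These were MT-ND3, MT-ND6, MT-ND2 and MT-ND1. No member was higher. Over all 15376 genes tested, 25.9% were lower by this rule, 10.2% were lower by over 1.5-fold, and 24.9% were higher. The median log2 fold change of the 7 members was −0.51, against 0.012 over all genes tested.

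MT-ND3 fell the most. Its normalized counts in DMSO replicates 1, 2 and 3 were 25395, 22860 and 22091, and in Met they were 9006, 10103 and 10950. Every Met library lay below every DMSO library, with no overlap. The log2 fold change was −1.23 (SE 0.098, adjusted p = 1.97e-07), and 1.57% of the genes tested had a lower value. How many of all genes separate between groups without overlap was not counted. A lack of overlap is therefore description, here and below.

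MT-ND6, the light-strand gene, came next. It had 7268, 4577 and 7623 normalized counts in the DMSO libraries and 3508, 2803 and 4146 in the Met libraries. DMSO replicate 2 was the low library of its group, and still lay above all Met libraries. The log2 fold change was −0.88 (SE 0.19, adjusted p = 0.0014).

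The antiporter-like subunit MT-ND2 had 93863, 72160 and 86175 normalized counts in DMSO and 49062, 47641 and 58712 in Met. The groups did not overlap, and the log2 fold change was −0.70 (SE 0.11, adjusted p = 0.00010). MT-ND1, at the quinone site, had 120106, 88907 and 113912 normalized counts in DMSO and 71046, 65316 and 90519 in Met. Here Met replicate 3 lay just above DMSO replicate 2, so the groups overlapped, and the log2 fold change was −0.51 (SE 0.13, adjusted p = 0.0048).

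The 3 remaining members did not pass the test. MT-ND5, another antiporter-like subunit, had 112292, 81747 and 115741 normalized counts in DMSO and 76075, 71503 and 102538 in Met, a log2 difference of −0.31 (SE 0.16, adjusted p = 0.11). It passed without DMSO replicate 2 (−0.47, adjusted p = 0.017) and without Met replicate 3 (−0.47, adjusted p = 0.019). MT-ND4L had 15635, 11010 and 12198 normalized counts in DMSO and 11643, 10709 and 13050 in Met, a log2 difference of −0.12 (SE 0.12, adjusted p = 0.43). MT-ND4, on the same mRNA as MT-ND4L, had 256330, 191065 and 248931 normalized counts in DMSO and 233405, 215961 and 278200 in Met, a log2 difference of 0.067 (SE 0.12, adjusted p = 0.65). The libraries of MT-ND5, MT-ND4L and MT-ND4 overlapped between the 2 treatments. MT-ND3 and MT-ND4L, separated by a tRNA gene, stood at 184 ± 22.7 MT-ND3 counts per 100 MT-ND4L counts in DMSO and at 85.2 ± 8.57 in Met (SD, n = 3).

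**Figure D2:**
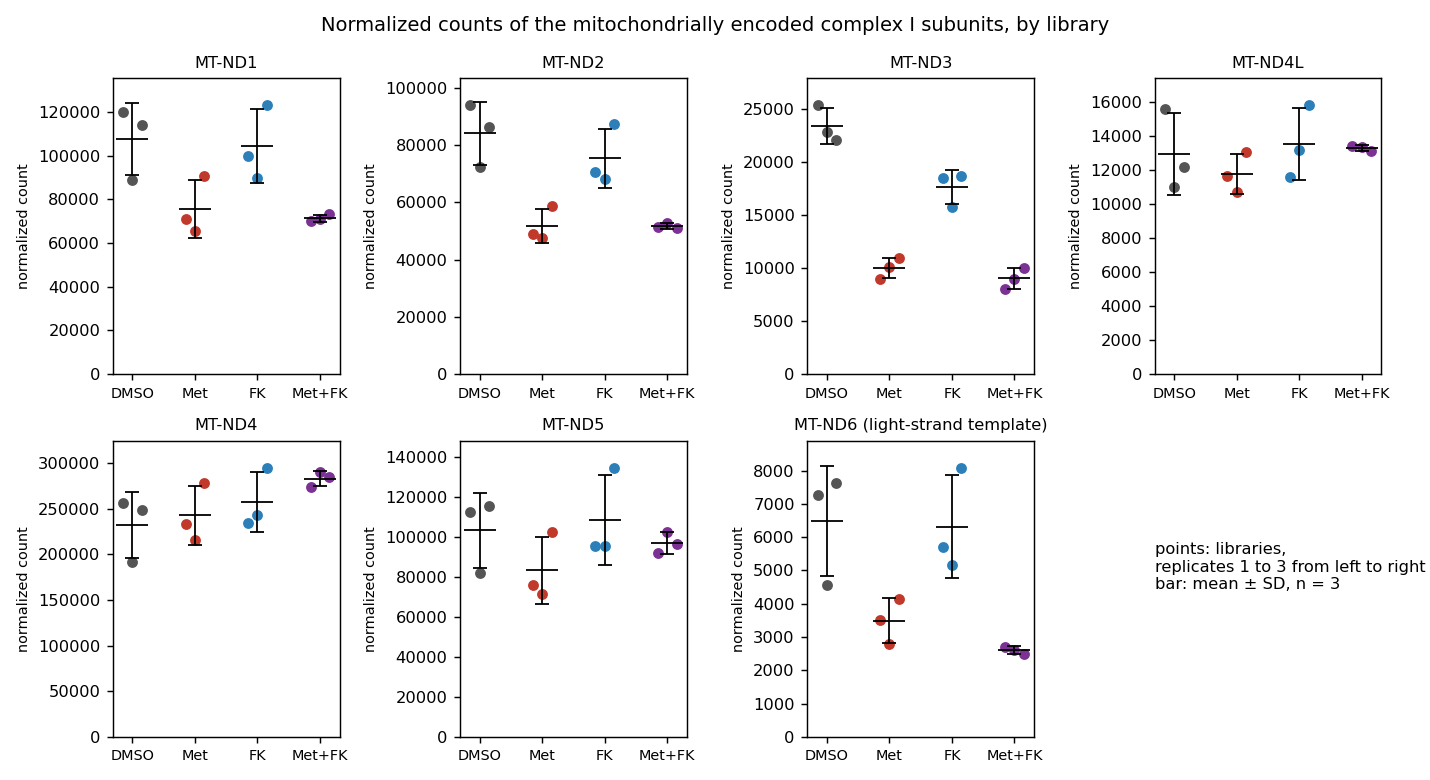
Normalized counts of each complex I gene in every library of 4 treatments, with the mean and SD of 3 libraries as black bars. For MT-ND2, MT-ND3 and MT-ND6 all libraries with metformin lie below all libraries without it, while MT-ND4L, MT-ND4 and MT-ND5 show no such separation.

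The second comparison asked the same of FK866 alone. It lowered 1 of 7 members, MT-ND3, where 9.84% of all genes tested were lower and 11.3% higher. MT-ND3 had 18491, 15816 and 18746 normalized counts in the FK libraries, all below the DMSO libraries and all above the Met libraries. The log2 fold change was −0.41 (SE 0.098, adjusted p = 0.021). The call was lost without DMSO replicate 1 (−0.35, adjusted p = 0.11), without FK replicate 2 (−0.33, adjusted p = 0.088), and with only the 6 libraries compared in the fit (adjusted p = 0.057). DMSO and FK libraries of the same number deviated together, and with the number as a block the call held. The other members had log2 differences between −0.16 for MT-ND2 (SE 0.11, adjusted p = 0.27) and 0.15 for MT-ND4 (SE 0.12, adjusted p = 0.32). MT-ND2 was also called (−0.24, adjusted p = 0.046) once the trend on GC content was removed and the replicate number was used as a block. MT-ND6 had 5713, 5150 and 8080 normalized counts in FK, a log2 difference of −0.031 (SE 0.19, adjusted p = 0.91) from DMSO, and its libraries overlapped with those of DMSO. MT-ND1 ranged from 89927 to 122993 normalized counts in FK and MT-ND5 from 95434 to 134499, in each case with replicate 3 as the highest library.

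The drug combination gave the same 4 members lower than in DMSO as metformin did, and the 2 comparisons share the DMSO libraries. Of all genes tested, 26.1% were lower in Met+FK, 11.3% were lower by over 1.5-fold, and 26.1% were higher. MT-ND3 had 8063, 8992 and 10063 normalized counts in Met+FK, all below the DMSO and FK libraries, and a log2 fold change of −1.38 (SE 0.098, adjusted p = 4.84e-08). MT-ND6 had 2715, 2608 and 2495, the lowest values of this gene in the series, and a log2 fold change of −1.28 (SE 0.19, adjusted p = 5.75e-05). MT-ND2 had 51247, 52916 and 50939 normalized counts in Met+FK, with a log2 fold change of −0.69 (SE 0.11, adjusted p = 8.92e-05). MT-ND1 had 69843, 70931 and 73081, with a log2 fold change of −0.58 (SE 0.13, adjusted p = 0.0019), and its Met+FK libraries, unlike its Met libraries, did not overlap with DMSO. MT-ND3, MT-ND6 and MT-ND2 changed by over 1.5-fold.

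MT-ND4 went the other way. Its normalized counts in Met+FK were 273752, 290510 and 284863, all above the DMSO libraries, and it rose by 0.30 on the log2 scale (SE 0.12, adjusted p = 0.042). This call was lost without DMSO replicate 2 (0.16, adjusted p = 0.21), without Met+FK replicate 1, 2 or 3 (adjusted p = 0.066, 0.11 and 0.086), with DESeq2 (adjusted p = 0.053), with all expressed genes tested (adjusted p = 0.16), and with the trend on GC content removed (adjusted p = 0.070). MT-ND4L, on the same mRNA, had 13434, 13359 and 13145 normalized counts in Met+FK and overlapped with DMSO (log2 difference 0.056, SE 0.12, adjusted p = 0.73). MT-ND5 had 91937, 102684 and 96345 and also overlapped (−0.075, SE 0.16, adjusted p = 0.71).

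**Figure D3:**
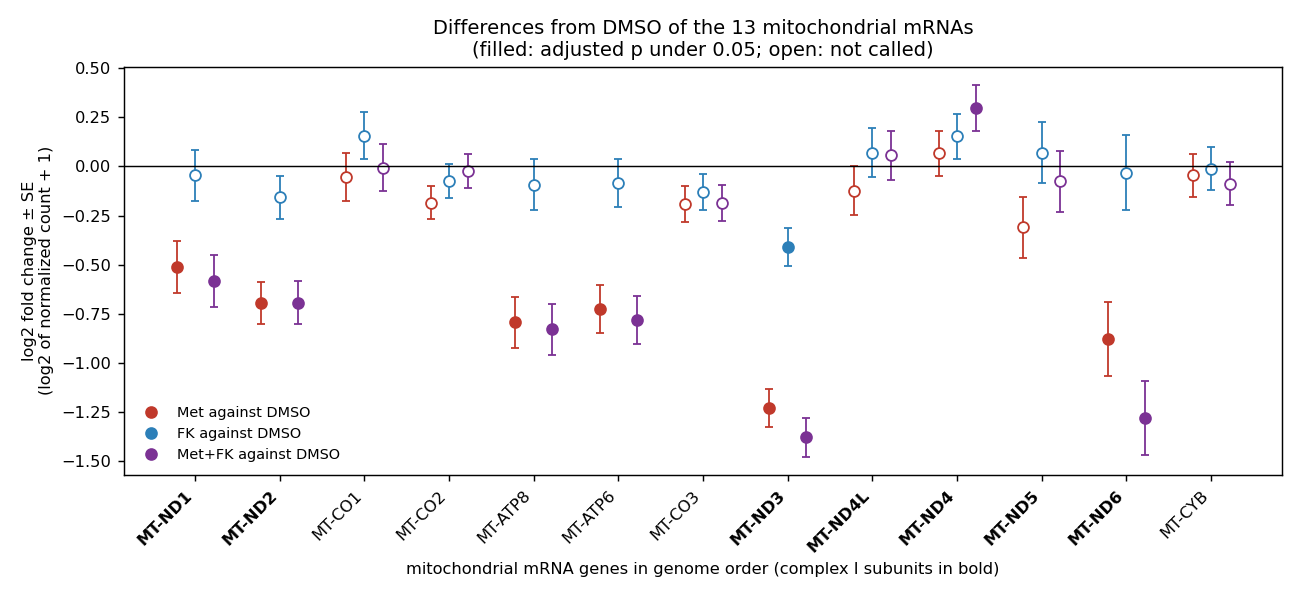
Log2 fold changes against DMSO (points, with SE as bars) of the 13 mitochondrial mRNAs in genome order, for Met, FK and Met+FK, filled where the adjusted p is under 0.05. MT-ND3 and MT-ND6 have the lowest points with metformin and with both drugs, MT-ND1, MT-ND2, MT-ATP8 and MT-ATP6 lie between, and the other genes lie closer to 0.

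To see whether metformin acted on these genes in the presence of FK866, Met+FK was compared with FK. The same 4 members were lower, where 21.7% of all genes tested were lower. The log2 fold changes were −1.25 for MT-ND6 (SE 0.19, adjusted p = 9.92e-05), −0.97 for MT-ND3 (SE 0.098, adjusted p = 2.00e-06), −0.54 for MT-ND1 (SE 0.13, adjusted p = 0.0043) and −0.54 for MT-ND2 (SE 0.11, adjusted p = 0.0010). In this comparison MT-ND6 had a lower value than MT-ND3. For each of the 4 genes all Met+FK libraries lay below all FK libraries, a separation that was not counted over all genes. MT-ND5 (−0.14, SE 0.16, adjusted p = 0.49), MT-ND4 (0.15, SE 0.12, adjusted p = 0.34) and MT-ND4L (−0.014, SE 0.12, adjusted p = 0.94) did not pass.

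Between the single drugs, MT-ND1, MT-ND2, MT-ND3 and MT-ND6 were lower in Met than in FK, where 19.5% of all genes tested were lower. MT-ND6 had a log2 fold change of −0.85 (SE 0.19, adjusted p = 0.0027) and MT-ND3 of −0.82 (SE 0.098, adjusted p = 1.40e-05). For MT-ND1 (−0.47, SE 0.13, adjusted p = 0.012) the call was lost without Met replicate 2 (adjusted p = 0.061) or FK replicate 3 (adjusted p = 0.067). MT-ND5 stood at −0.38 (SE 0.16, adjusted p = 0.069), and was called without Met replicate 3 (adjusted p = 0.014) or without FK replicate 2 (adjusted p = 0.031).

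When FK866 was added to metformin, no member passed the test. In Met+FK against Met, limma called 0 of 7 members, where 0.0976% of all genes tested were called. By edgeR and DESeq2, 0 members were called as well. By limma, 0 members and 1051 of the 15376 genes tested had an unadjusted p under 0.05. MT-ND6 came nearest. Its 3 Met+FK libraries lay below its 3 Met libraries without overlap, with a log2 difference of −0.40 (SE 0.19, unadjusted p = 0.051, adjusted p = 0.73). MT-ND5 (0.24, SE 0.16), MT-ND4 (0.23, SE 0.12) and MT-ND4L (0.18, SE 0.12) stood a little higher in Met+FK, with adjusted p = 0.82, 0.76 and 0.83. The MT-ND4L libraries did not overlap either. How many of all genes separate in this way was not counted, so the lack of overlap is description only. MT-ND3 stood at −0.15 (SE 0.098, adjusted p = 0.82), MT-ND1 at −0.071 (SE 0.13, adjusted p = 0.96) and MT-ND2 at 0.0032 (SE 0.11, adjusted p = 0.998). The interaction is what FK866 did in metformin-treated cells minus what it did alone. It was likewise called by limma, edgeR and DESeq2 for 0 of 7 members, where limma called 0.0585% of all genes tested. For the interaction, 0 members and 4695 of the 15376 genes tested had an unadjusted p under 0.05 by limma. The lowest interaction was that of MT-ND6 (−0.37, SE 0.27, adjusted p = 0.34) and the highest that of MT-ND3 (0.26, SE 0.14, adjusted p = 0.21).

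The make-up of the complex I read pairs shifted accordingly. MT-ND4 took 40.5% to 41.0% of the members' read pairs in DMSO, 43.2% to 45.8% in FK, 49.8% to 51.4% in Met and 53.6% to 53.7% in Met+FK. These ranges do not overlap. They are shares of a common total, so the share of MT-ND4 can rise where the counts of other members fall. The counts of MT-ND4 itself passed the test against DMSO only in Met+FK. MT-ND3 took 3.64% to 4.84% in DMSO, 2.75% to 3.45% in FK, 1.96% to 2.38% in Met and 1.58% to 1.90% in Met+FK, also without overlap. MT-ND6 took 0.969% to 1.26% in DMSO and 0.971% to 1.18% in FK, which overlapped, against 0.661% to 0.773% in Met and 0.470% to 0.531% in Met+FK. MT-ND5 (17.3% to 19.1% in DMSO, 17.99% to 18.9% in Met+FK) and MT-ND4L (2.01% to 2.48% and 2.46% to 2.63%) had overlapping shares in these 2 groups.

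Since MT-ND6 is read from the other strand, it was compared with the other 6 members within each library, by the log2 ratio of its value to their mean log2 value. This ratio does not depend on how the libraries are scaled. It was −3.29, −3.56 and −3.09 in the DMSO libraries and −3.62, −3.89 and −3.67 in the Met libraries, so that all Met values lay below all DMSO values. It was −3.32, −3.43 and −3.13 in the FK libraries, which overlapped with DMSO. In Met+FK it was −4.09, −4.22 and −4.29, below every other library.

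Metformin lowered the ratio by 0.66 on the log2 scale, averaged over cells without and with FK866 (exact permutation test within the levels of FK866, two-sided, p = 0.005, the smallest that its 400 arrangements allow; adjusted p = 0.014 over 14 tests). The difference was −0.41 without FK866 and −0.91 with it, and whether these 2 values differ was not tested. All 6 pairs of libraries with the same number had the lower ratio with metformin. Against single members, MT-ND6 fell most relative to MT-ND4 (−1.17) and MT-ND4L (−0.996), then MT-ND5 (−0.84) and MT-ND1 (−0.54), each with p = 0.005 and an adjusted p of 0.014 by the same exact test. Relative to MT-ND2 it fell by 0.45 (p = 0.02, adjusted p = 0.035, exact test). Relative to MT-ND3, which is read from the other strand, the difference of MT-ND6 was 0.035 and did not pass (exact permutation p = 0.84, adjusted p = 0.84). The MT-ND6 to MT-ND3 difference was 0.35 without FK866 and −0.28 with it.

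The effect of FK866 on the same ratio did not pass. It was −0.23 (exact permutation p = 0.105, adjusted p = 0.147), made up of 0.022 without metformin and −0.47 with it, and 5 of 6 pairs had the lower ratio with FK866. Relative to MT-ND4 (−0.41) and to MT-ND5 (−0.37) the fall of MT-ND6 passed (exact p = 0.015, adjusted p = 0.03 each). For MT-ND4 it was −0.18 without metformin and −0.63 with it, and for MT-ND5 −0.10 and −0.64. Whether these values differ with metformin was not tested. Relative to MT-ND4L the fall of MT-ND6 missed the threshold after adjustment (−0.34, exact p = 0.04, adjusted p = 0.062). So did the differences relative to MT-ND1 (−0.16, adjusted p = 0.16), MT-ND2 (−0.14, adjusted p = 0.33) and MT-ND3 (0.063, adjusted p = 0.83), by the same exact test. In counts, MT-ND6 stood at 6.22 ± 0.541 per 100 counts of its neighbour MT-ND5 in DMSO, 5.79 ± 0.344 in FK, 4.19 ± 0.368 in Met and 2.69 ± 0.226 in Met+FK (SD, n = 3).

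**Figure D4:**
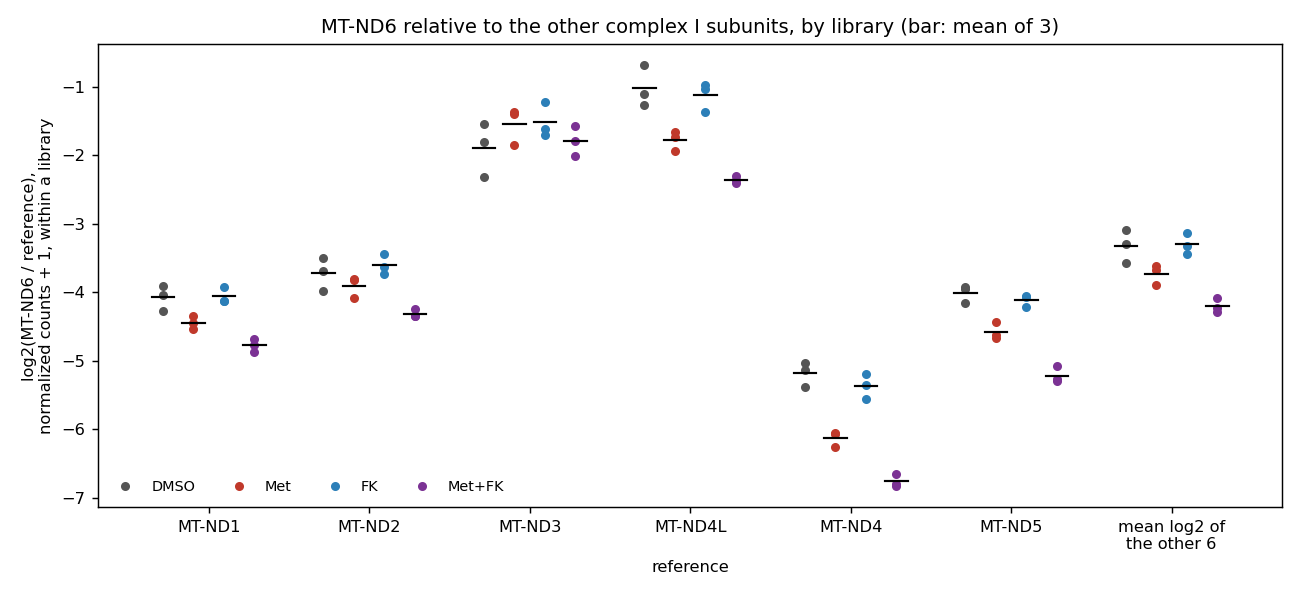
Log2 ratio of MT-ND6 to each other complex I gene and to their mean, within each of 12 libraries (points) with the mean of 3 as a bar. Relative to MT-ND1, MT-ND4L, MT-ND4 and MT-ND5 the Met and Met+FK points lie below the DMSO and FK points, and relative to MT-ND3 all 4 groups overlap.

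Over the 12 libraries, which share their 4 treatments, the log2 values of MT-ND6 went with those of MT-ND1 (Pearson's r = 0.97), MT-ND2 (0.95) and MT-ND3 (0.88), and less with MT-ND5 (0.63), MT-ND4L (0.37) and MT-ND4 (−0.067). MT-ND3 and MT-ND4 had an r of −0.33. These are descriptions of how the treatments order the genes. Of 11508 nuclear genes compared in the same way, those most like MT-ND6 were ACACA (r = 0.97), IRX5 (0.97), DIDO1 (0.96), LUZP1 (0.96) and CCDC9B (0.96). Those most like the mean of the other 6 members were SMAD3 (0.96), TLE3 (0.96), NUP214 (0.96), QSOX2 (0.95) and MICAL3 (0.95).

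The other 6 mitochondrial mRNAs encode subunits of the other respiratory complexes. Metformin lowered 2 of these 6, where 25.9% of all genes tested were lower. They were MT-ATP8 (−0.79, SE 0.13, adjusted p = 0.00017) and MT-ATP6 (−0.73, SE 0.12, adjusted p = 0.00019), the overlapping genes for subunits of ATP synthase. MT-ATP8 had 31505 ± 5076 normalized counts in DMSO and 18183 ± 3042 in Met (SD, n = 3), and MT-ATP6 had 73695 ± 10914 and 44454 ± 5935. Both were also lower in Met+FK than in DMSO (−0.83 and −0.78, adjusted p = 9.67e-05 and 8.52e-05). The cytochrome c oxidase genes MT-CO1 (−0.053), MT-CO2 (−0.18) and MT-CO3 (−0.19) and the cytochrome b gene MT-CYB (−0.046) did not pass with metformin (adjusted p = 0.74, 0.084, 0.093 and 0.75). MT-CO3, the upstream neighbour of MT-ND3, thus stood at −0.19 (SE 0.091) where MT-ND3 fell by 1.23 on the log2 scale. With FK866 alone, limma called 0 of the 6, as did edgeR and DESeq2. Over all genes tested, limma called 9.84% lower and 11.3% higher with FK866. By limma, 0 of the 6 and 6488 of all 15376 genes tested had an unadjusted p under 0.05.

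The nucleus encodes further core subunits of complex I, which hold its NADH site and iron-sulfur clusters, and 6 are described here. Metformin lowered 3 of the 6 (25.9% of all genes tested), namely NDUFS3 (−0.59, SE 0.084, adjusted p = 4.82e-05), NDUFV2 (−0.49, SE 0.067, adjusted p = 3.25e-05) and NDUFS8 (−0.37, SE 0.090, adjusted p = 0.0035). NDUFS3 went from 3518 ± 251 to 2333 ± 123 normalized counts (SD, n = 3), the only change over 1.5-fold among the 6. NDUFV1 (−0.18), NDUFS7 (−0.15) and NDUFS1 (0.041) did not pass (adjusted p = 0.088, 0.19 and 0.63). With the trend on GC content removed, 4 of the 6 were lower with metformin (32.5% of all genes). The same 3 were lower in Met+FK against the same DMSO libraries (26.1% of all genes), with NDUFV2 at −0.58 (SE 0.067, adjusted p = 6.17e-06) and NDUFS3 at −0.56 (SE 0.084, adjusted p = 6.85e-05). With the trend on GC content removed, 3 were lower and 1 higher there, where 33.0% of all genes were lower and 27.3% higher. With FK866 alone, NDUFS3 (−0.32, adjusted p = 0.026), NDUFS8 (−0.31, adjusted p = 0.032) and NDUFV1 (−0.26, adjusted p = 0.045) were lower and NDUFS1 (0.21, adjusted p = 0.042) was higher, where 9.84% of all genes were lower and 11.3% higher. Once the trend on GC content was removed, 0 of these 4 FK866 calls were left, where 6.83% of all genes were lower and 4.25% higher. With the block added, 1 of 6 genes was lower, where 12.8% of all genes were lower and 7.66% higher.

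The nuclear genes that make and maintain mitochondrial RNA were described by 4 lists. With metformin, 25.9% of all genes tested were lower and 24.9% higher, or 32.5% and 24.8% with the trend on GC content removed. Of 10 transcription genes, metformin changed 0 by limma and by DESeq2 and 1 by edgeR. By limma, 2 of the 10 had an unadjusted p under 0.05, as had 8799 of all 15376 genes tested. With the trend on GC content removed, 4 of the 10 were called, 1 higher and 3 lower. With the trend left in, the mitochondrial RNA polymerase POLRMT did not pass (−0.18, SE 0.099, adjusted p = 0.14), with 3092 ± 95.7 normalized counts in DMSO and 2733 ± 259 in Met (SD, n = 3), and neither did the transcription and packaging factor TFAM (−0.074, SE 0.15, adjusted p = 0.71). Of 7 genes of mitochondrial DNA replication, 4 fell and 1 rose, the polymerase accessory subunit POLG2 (0.55, SE 0.098, adjusted p = 0.00030). DNA copy number was not measured.

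Of 6 genes that process the precursor RNA, metformin lowered 4, or 6 with the trend on GC content removed, among them ELAC2, which cuts the 3′ ends of tRNAs (−0.63, SE 0.077, adjusted p = 1.35e-05), and FASTKD5, which acts at junctions without a tRNA (−0.49, SE 0.083, adjusted p = 0.00019). ELAC2 went from 9404 ± 319 normalized counts in DMSO to 6090 ± 379 in Met (SD, n = 3). Of 13 genes of RNA stability and decay, 6 fell and 1 rose, or 10 and 0 with the trend on GC content removed. The one that rose was LRPPRC (0.44, SE 0.13, adjusted p = 0.012), which protects heavy-strand mRNAs, while its partner SLIRP fell (−0.36, SE 0.097, adjusted p = 0.0061). FASTK, which MT-ND6 mRNA needs, fell (−0.42, SE 0.088, adjusted p = 0.0012), as did the helicase DHX30 (−0.57, SE 0.093, adjusted p = 0.00015) and GRSF1, a binder of G-rich light-strand RNA (−0.23, SE 0.072, adjusted p = 0.016). The degradosome genes SUPV3L1 (0.15, SE 0.062, adjusted p = 0.061) and PNPT1 (0.069, SE 0.11, adjusted p = 0.63) did not pass. Over these lists the median log2 fold changes were 0.081 (transcription), −0.35 (replication), −0.35 (processing) and −0.069 (stability and decay), against 0.012 over all genes tested.

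With FK866 alone, 0 of the 10 transcription genes passed by limma and edgeR and 1 by DESeq2. By limma, 1 of the 10 had an unadjusted p under 0.05, as had 6488 of all 15376 genes tested. With the replicate number as a block, 5 of the 10 passed, 4 of them higher. With the trend on GC content removed as well, 0 of the 10 passed. Of the replication, processing and stability genes, 1 of 7, 1 of 6 and 4 of 13 were called with FK866, where 9.84% of all genes were lower and 11.3% higher. With the trend on GC content removed these counts were 2, 1 and 3, all lower, where 6.83% of all genes were lower and 4.25% higher. With the block, the processing genes called were 3 and the stability genes 8, where 21.3% of all genes were lower and 23.3% higher. In Met+FK, transcription genes were called in both directions (1 higher and 2 lower). So were replication genes (1 higher and 4 lower) and stability genes (2 higher and 6 lower). The processing list had 4 of 6 lower, where 26.1% of all genes were lower and 26.1% higher. With the trend on GC content removed, Met+FK had 3 transcription genes higher and 3 lower, and 6 of 6 processing genes lower. The replication list again had 1 higher and 4 lower, and the stability list 2 higher and 10 lower. In that fit 33.0% of all genes were lower and 27.3% higher.

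**Figure D5:**
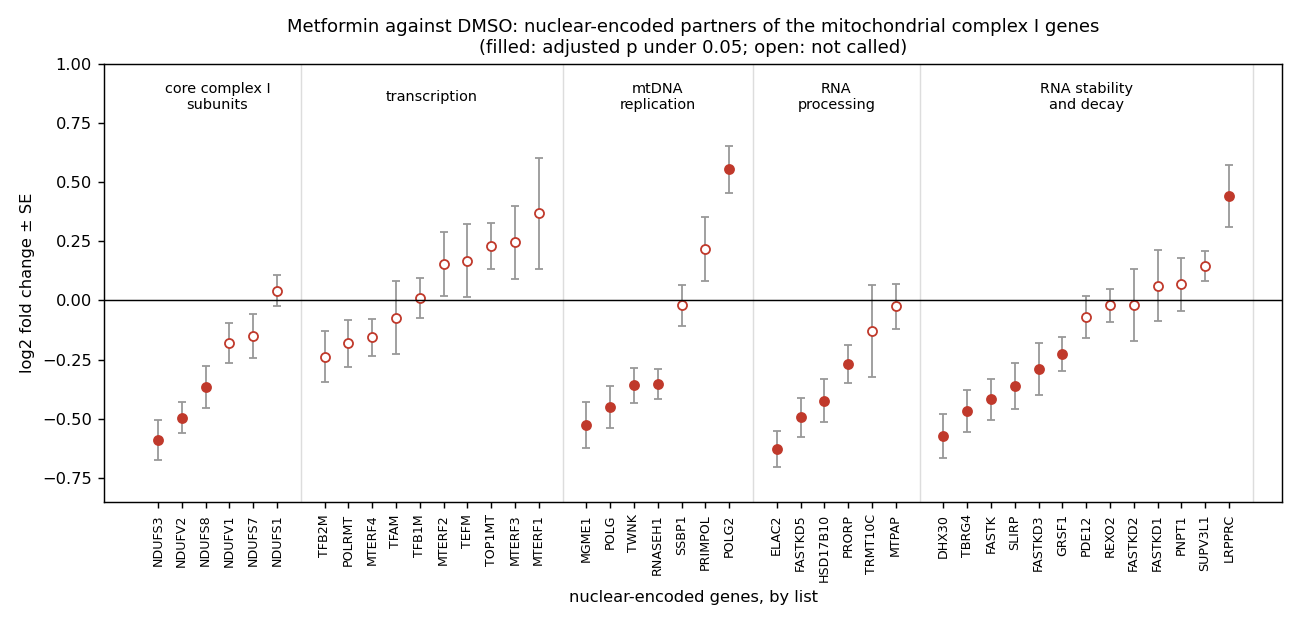
Log2 fold changes of metformin against DMSO (points, with SE as bars) for nuclear genes of 5 lists, filled where the adjusted p is under 0.05. In the core complex I and processing lists all filled points lie below 0, POLG2 and LRPPRC are the filled points above 0, and no transcription gene is filled.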

How the data were processed

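RNA of 12 KP4 libraries (4 treatments, 3 libraries each) was analysed. Read pairs were trimmed by the authors (cutadapt), aligned (STAR, hg38) and counted where both ends mapped (featureCounts), and the authors divided the counts by DESeq2 size factors. The annotation and strand setting are not given in the sources used here. The deposited values are thus a signal, normalized counts of 36601 genes, of which 9803 are at 0 throughout. Divided by the step of its library, every value (100%) came out as a whole number of read pairs within 0.01, which gave the pairs back. Replicates differed by more than counting noise (chi-square per degree of freedom 5.69 to 51.5). Starts, which the table counts from 0, were converted to count from 1 and matched GENCODE for all 13 mitochondrial genes.

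Genes with a mean of at least 10 (15376) were tested with limma-trend (limma 3.58.1, R 4.3.3) on log2(normalized count + 1). A single fit held the 12 libraries, and p-values were adjusted over all genes (Benjamini-Hochberg). The treatments thus shared an estimate of the spread of each gene, although their spreads could differ. For MT-ND6 the SD of the normalized counts was 1666 in DMSO and 110 in Met+FK. A call is an adjusted p under 0.05. Fold changes are on that log2 scale. MT-ND6 ratios were tested by exact permutation. The scripts were tested on simulated data. The members and lists were chosen with earlier results of these data known. Named genes were all members, the other mitochondrial mRNAs, 6 nuclear core subunits, 8 genes of mitochondrial RNA (POLRMT, TFAM, LRPPRC, SLIRP, SUPV3L1, PNPT1, GRSF1, FASTK), up to 3 genes per direction with the smallest adjusted p with metformin, and the 5 genes most like MT-ND6 or the mean of the others. Some genes that the rule and the lists named are not reported here.

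Alternatives were pseudocounts of 0.1 and 10, no filter, 3 other scalings, fits of the compared libraries alone, a block for the replicate number, edgeR 4.0.16 and DESeq2 1.42.0 on read pairs, each library left out, and, chosen after seeing the data, removal of a loess trend on GC content and length. Deviations of same-numbered libraries correlated across genes, with r of 0.25, 0.42 and 0.22 between DMSO and FK. Between Met and Met+FK, r was 0.17, 0.20 and 0.23. These groups could therefore be paired, a reading that rests on the data and not on the labels. The main fit and the exact permutation tests used no pairs. Other groups had r of this size in some replicates. It ran from 0.013 to 0.33 between DMSO and Met, from 0.023 to 0.40 between Met and FK, and from 0.046 to 0.24 between FK and Met+FK. With the GC and length trend removed, r was 0.14, 0.17 and 0.13 between DMSO and FK, and 0.16, 0.096 and 0.074 between Met and Met+FK.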

Additional observations from a re-analysis of the deposited data

How the results depend on the processing

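Log2 fold changes of MT-ND1, MT-ND2, MT-ND3 and MT-ND6 for Met or Met+FK against DMSO and for Met+FK against FK kept their direction and their call under every alternative run. The effect of metformin on the ratio of MT-ND6 to the other 6 members also kept its call, from −0.722 to −0.604 with 1 library left out, −0.709 relative to all 12 other mitochondrial mRNAs and −0.880 relative to the sum of the 6. The effect of FK866 on it was −0.311 (unadjusted exact p = 0.04) relative to the sum and −0.288 to −0.170 with 1 library left out, and passed without DMSO replicate 2 (−0.288, exact p = 0.02). With the replicate numbers as pairs, an exact sign-flip test gave p = 0.03125, the smallest that 6 pairs allow, for metformin and p = 0.15625 for FK866. For metformin the pairs were DMSO with Met and FK with Met+FK, whose replicate 1 libraries had r of 0.013 and 0.046. The number of members called in FK against DMSO was 1, but 0 with only the libraries compared, 2 with the GC and length trend removed and the replicate block, and 0 to 1 with 1 library left out. The replicate block added MT-ND5 in Met against DMSO (adjusted p = 0.022) and in Met against FK (adjusted p = 0.0090), groups whose same-numbered libraries did not all deviate together (r from 0.013 and 0.023 up), and changed no other call of a member. In Met against DMSO the block called 4 in place of 2 other mitochondrial mRNAs and 4 in place of 0 transcription genes. The share of all genes called in that fit is not given here, so these counts are no result about the lists. In FK against DMSO the block raised the share of all genes called lower from 9.84% to 21.3%. There the share called higher went from 11.3% to 23.3%. Scaling to equal totals moved the median of all genes in Met against DMSO by 0.12 (log2), and no call of a member.

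Values near 0 that never passed the test changed sign. With 1 library left out, the Met against DMSO values of MT-ND4L ran from −0.23 to 0.021 and of MT-ND4 from −0.067 to 0.15. In FK against DMSO, MT-ND1 ran from −0.18 to 0.055, MT-ND4L from −0.048 to 0.21, MT-ND5 from −0.095 to 0.16 and MT-ND6 from −0.26 to 0.10. In Met+FK against DMSO, MT-ND4L ran from −0.053 to 0.20 and MT-ND5 from −0.23 to 0.016. In Met against FK, MT-ND4 ran from −0.19 to 0.016. In Met+FK against Met, MT-ND1 ran from −0.17 to 0.065 and MT-ND2 from −0.054 to 0.097. In Met+FK against FK, MT-ND4L ran from −0.12 to 0.10 and MT-ND5 from −0.23 to 0.021. For the interaction, MT-ND1 ran from −0.13 to 0.11, MT-ND4L from −0.035 to 0.23 and MT-ND4 from −0.0017 to 0.21. With libraries scaled to the same total, or to the same nuclear total, MT-ND5 in Met+FK against DMSO became 0.0079 or 0.0060, MT-ND4 in Met against FK 0.014 or 0.0087, MT-ND2 in Met+FK against Met −0.036 or −0.035, and MT-ND4L in Met+FK against FK 0.046 or 0.042. This last value was 0.12 with the GC and length trend removed, with or without the block. MT-ND2 in Met+FK against Met was −0.016 with TMM scaling, −0.0049 with edgeR and −0.0029 with DESeq2.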
